A study of Rattus norvegicus with 6 samples.

Results

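The 9 miRNAs described here come from 1 gene neighbourhood on the rat X chromosome. They are rno-miR-532-5p and rno-miR-532-3p, rno-miR-188-5p and rno-miR-188-3p, rno-miR-362-5p and rno-miR-362-3p, rno-miR-501-5p, rno-miR-3560 and rno-miR-500-3p, where rno stands for rat and is left off from here on. They were chosen by name, as the probes on the array whose target name equals 1 of these 9, of 758 rat miRNAs in all. The choice was made with earlier diet results of these same arrays in view, so their diet differences are given as a description with no test. Male Wistar rats were kept for 20 weeks on normal chow or on a high-fat diet, and total RNA was taken from the left ventricular myocardium. There were 3 samples per diet, labelled with the dye Cy3 and hybridised 1 per array. No transgene, deletion or further treatment is named for either diet. The labels do not say whether each sample is 1 animal, so the spread between samples may in part be technical.

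MicroRNAs are short RNAs cut from a hairpin in a longer transcript. Drosha frees the hairpin in the nucleus and Dicer cuts it in the cytoplasm, which leaves a strand from its 5′ side (5p) and a strand from its 3′ side (3p). Either strand can be loaded into an Argonaute protein, where bases 2 to 8, the seed, pair with messenger RNAs and lower their output. Hairpins that lie close together on 1 strand are often carried on a shared transcript, while each mature strand is then processed and turned over on its own.

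The label of a common neighbourhood held in the RefSeq annotation of the rat build GRCr8. The 6 hairpin genes lay within 11542 bases of chromosome X, at chrX:17919185-17930726, and inside the span of Clcn5, at chrX:17857260-18011844 on the plus strand, which encodes an endosomal chloride-proton exchanger. In this order, Mir532 began at base 17919185, Mir188 at 17919585, Mir362 at 17926485, Mir3560 at 17927178, Mir501 at 17927189 and Mir500 at 17930647. Of the 6 hairpins, 5 were on the plus strand with Clcn5. Mir3560 was on the minus strand, and its hairpin, chrX:17927178-17927289, covered that of Mir501, chrX:17927189-17927272.

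RefSeq gave the mature sequence of 8 of the 9 members, and these are shown, with the 3p partner of miR-501-5p, because they tell the members apart by seed and show which of them pair with each other. Each runs 5′ to 3′ with the seed in capitals.
miR-532-5p: cAUGCCUUgaguguaggacugu
miR-532-3p: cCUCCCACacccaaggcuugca
miR-188-5p: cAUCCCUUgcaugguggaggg
miR-188-3p: cUCCCACAugcaggguuugc
miR-362-3p: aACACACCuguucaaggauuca
miR-501-5p: aAUCCUUUgucccuggguga
miR-501-3p: aAUGCACCcgggcaaggauuugg
miR-3560: cAAAUCCUugcccgggugcauu
miR-500-3p: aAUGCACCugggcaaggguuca

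The 8 members with a sequence had 8 different seeds. miR-500-3p shared its seed, AUGCACC, with its neighbour miR-501-3p, and 18 positions of these sequences matched in the best ungapped alignment, so signal read as miR-500-3p could in part be its near copy. miR-500-3p and miR-362-3p matched at 17 positions and miR-188-3p and miR-532-3p at 16. All 22 bases of miR-3560 were the reverse complement of miR-501-3p, from the opposite strand of the same stretch, chrX:17927239-17927260. The GC content of these members ran from 40.9% in miR-362-3p to 63.6% in miR-532-3p, against a median of 47.8% over the 388 tested miRNAs with a RefSeq sequence.

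**Figure D1:**
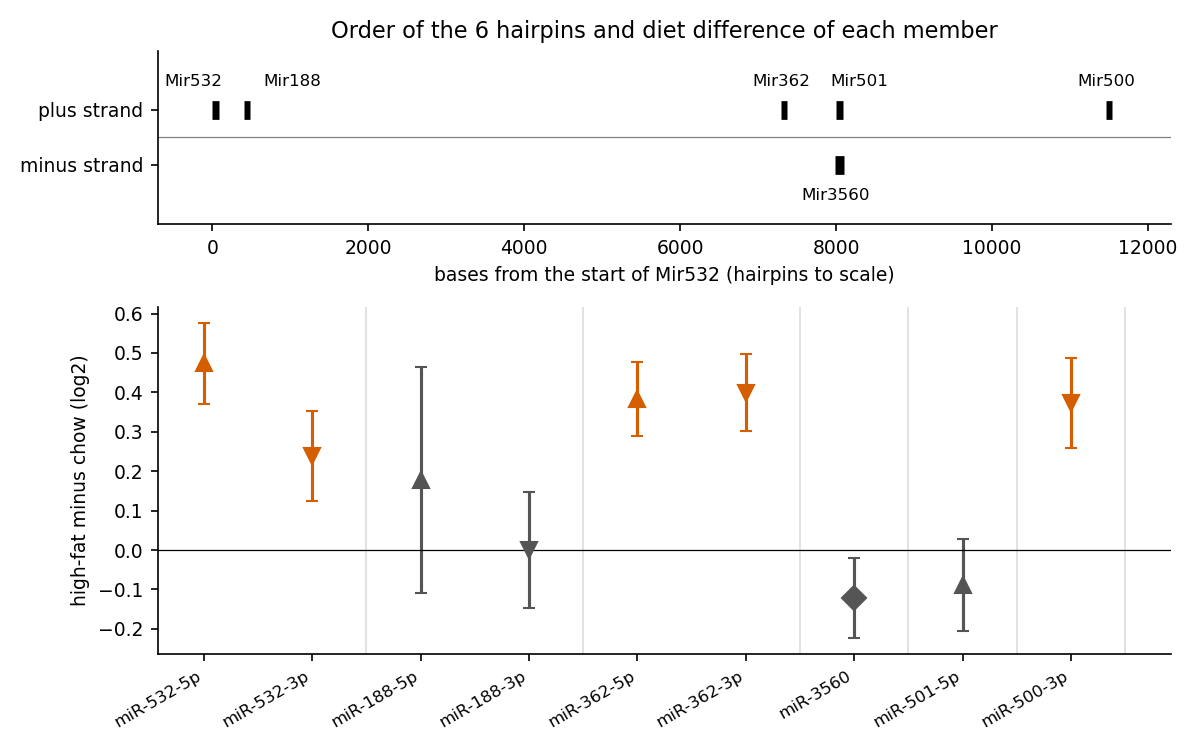
Upper panel: the 6 hairpins by strand, in bases from the start of Mir532, to scale. Lower panel: the diet difference (high-fat minus chow, log2 scaled signal) of each member in the same order, with moderated SE bars; upward triangles are 5p strands, downward triangles 3p strands, the diamond is miR-3560, and orange marks the 5 members whose diets did not overlap, which come from Mir532, Mir362 and Mir500.

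Fluorescence was divided on each array by a 75th percentile taken over bright probes, so a log2 value of 0 is the level of that percentile, and 1 probe, the brightest, stands for each miRNA. Each of the 9 members passed the background filter on each of the 6 arrays, so none entered through 1 diet alone. Their probes were of modest brightness, with signals before scaling from 17.5 to 325 units. The spots of 1 probe on 1 array had a median coefficient of variation from 2.60% in miR-188-5p to 11.7% in miR-188-3p. The 2 remaining strands of these hairpins on the array, miR-500-5p and miR-501-3p, were well above background on 0 and 2 arrays and were not tested. Both arrays that showed miR-501-3p, high-fat replicates 2 and 3, were also those with the most miRNAs well above background, 454 and 468, against 388 to 418 on the other arrays.

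Facts of the arrays bear on each diet difference that follows. The 75th percentile of signal was 359, 424 and 376 on the chow and 415, 531.7 and 561 on the high-fat arrays. A wash-stringency control ratio of the scanner software was 3.44 to 4.19 on chow and 0.97 to 1.94 on high-fat arrays. Chow replicate 1 was on slide 1 with the 3 high-fat arrays, and chow replicates 2 and 3 were alone on slide 2. Of the heart muscle markers miR-1-3p, miR-133a-3p, miR-208a-3p and miR-499-5p, 4 of 4 passed the background filter on every array, and their summed scaled signal was 211 to 216 on chow and 167 to 200.01 on high-fat. miR-133a-3p was lower on all high-fat arrays, by at least 0.12 (log2). miR-499-5p was too, but its diets touched, with a gap of 0.0009. miR-1-3p and miR-208a-3p overlapped between the diets. Both erythroid markers, miR-144-3p and miR-451-5p, were higher on every high-fat array, with a summed signal of 13.7 to 20.1 against 8.98 to 11.1. The summed signal of the endothelial marker was 57.3 to 65.2 on high-fat and 62.4 to 64.6 on chow, that of 2 smooth muscle markers 52.6 to 58.2 and 52.2 to 55.7, that of the myeloid marker 1.75 to 1.97 and 1.39 to 1.82, and that of the neuronal marker 0.056 to 0.106 and 0.084 to 0.099. miR-200a-3p, like miR-200b-3p an epithelial marker, was at the floor of -5.82 on 5 of the 6 arrays and above it on chow replicate 1; miR-200b-3p read likewise. Of their family, miR-141-3p was higher on all high-fat arrays by 1.71 ± 0.25 (log2, SE, limma adjusted p = 0.0425, n = 3 each), and miR-200c-3p by 1.27 ± 0.34 (adjusted p = 0.224). The chow mean of miR-200c-3p was -5.31, near the floor. miR-200b-5p, also of this family, overlapped between the diets, with a difference of 0.04 ± 0.16 (SE, limma adjusted p = 0.94). The part of brightness, stringency, slide or red-cell RNA in the members' differences was not tested, and in tissue RNA fewer cells of a type and less of an RNA per cell cannot be told apart.

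Both strands of miR-532 and miR-362 and the 3p strand of miR-500 were higher on all 3 high-fat arrays than on any chow array. These 5 of the 9 members differed by 1.18-fold to 1.39-fold. Across all 425 tested miRNAs, 6.59% were higher without overlap and 10.6% lower without overlap, and nothing is read from the members' count since they were chosen on this contrast. Of the 9 members 6 had a difference above 0, as had 167 of the 425 (39.3%). The median difference was 0.24 over the 9 members and -0.04 over all tested miRNAs (log2). In the limma fit 0 of the 9 members passed an adjusted p of 0.05, where 2 of 425 miRNAs (0.471%) did, and 4 of the 9 had an unadjusted p under 0.05, where 50 of 425 (11.8%) had. These counts describe the fit and are no test of the members.

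miR-532-5p, reported in human gastric cancer cells to target RUNX3, differed most. Its scaled log2 signal was -2.28, -2.11 and -2.22 on chow replicates 1 to 3 and -1.85, -1.67 and -1.68 on high-fat replicates 1 to 3. The diets were 0.26 apart at their nearest arrays, and the mean difference was 0.47 ± 0.10 (log2, moderated SE, n = 3 each), or 1.39-fold. Its second probe differed by 0.44 and did not overlap between the diets either.

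miR-532-3p, reported in mouse heart muscle cells to target the apoptosis repressor ARC, differed by less. Its values were -2.67, -2.96 and -2.98 on the chow arrays and -2.57, -2.66 and -2.66 on the high-fat ones. Chow replicate 1 lay only 0.01 below the lowest high-fat array, and the difference was 0.24 ± 0.11 (SE). Its dimmer second probe differed by 0.27, and there the diets overlapped. On slide 1, where chow replicate 1 is the only chow array, the difference was 0.04, so the size for miR-532-3p depends on which chow array it is set against.

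miR-362-5p, reported in human gastric cancer cells to target the deubiquitinase CYLD, was the dimmest of the 5. Its values were -3.96, -3.86 and -3.85 on the chow arrays and -3.54, -3.43 and -3.54 on the high-fat ones, with the widest gap between nearest arrays among the members, 0.30. The difference was 0.38 ± 0.09 (SE), or 1.30-fold. Of its 4 probes, 2 were well above background, and the second of these differed by 0.45. Before scaling its signal was 23.1 to 49.3 units, and with a background correction that adds 50 units (normexp) and the 75th percentile the difference was -0.023.

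miR-362-3p, from the other side of the same hairpin, was also higher on the high-fat arrays. It read -1.59, -1.39 and -1.49 on the chow arrays and -1.14, -1.07 and -1.06 on the high-fat ones. The high-fat arrays were all above the chow arrays, by at least 0.25, and the difference was 0.40 ± 0.10 (SE), or 1.32-fold. Its second probe differed by 0.44.

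miR-500-3p, whose hairpin lies last in the row, had nearly equal chow values of -1.23, -1.25 and -1.23. Its high-fat values were -1.06, -0.71 and -0.82, so high-fat replicate 1 stood nearest to chow. The difference was 0.37 ± 0.11 (SE), or 1.30-fold, and 0.44 on its second probe.

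The other 4 members overlapped between the diets. miR-188-5p, reported to favour fat-cell over bone-cell fate in mouse marrow stem cells, read -2.10, -1.29 and -2.15 on the chow arrays and -2.14, -1.58 and -1.29 on the high-fat ones. These values fell into a low set of chow replicates 1 and 3 with high-fat replicate 1 and a high set of the other 3 arrays, in both diets, and its second probe split the arrays the same way. The difference between diets of miR-188-5p was 0.18 ± 0.29 (SE), smaller than the spread within a diet (SD 0.48 on chow, 0.43 on high-fat).

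miR-188-3p, reported in mouse heart to target the autophagy gene Atg7, read -2.81, -2.91 and -2.89 on the chow arrays and -2.72, -2.70 and -3.19 on the high-fat ones. High-fat replicate 3 was the lowest array and the other high-fat arrays the highest, and the diet means of miR-188-3p were both -2.87. On its second probe the order differed: high-fat replicate 1 was lowest, at -3.38, and the diet difference was -0.04. The spots of the brightest miR-188-3p probe had a coefficient of variation of up to 42.9% on 1 array, so the order of the arrays is uncertain. miR-501-5p, made in the middle of the row, read -4.12, -4.37 and -4.43 on the chow arrays and -4.50, -4.33 and -4.36 on the high-fat ones. Its difference was -0.09 ± 0.12 (SE), within the spread of the chow arrays. miR-3560, from the opposite strand, read -0.87, -1.05 and -1.04 on the chow arrays and -1.19, -1.03 and -1.12 on the high-fat ones. Its difference was -0.12 ± 0.10 (SE), and on its second probe, where it was -0.15, the high-fat arrays all lay below the chow arrays.

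**Figure D2:**
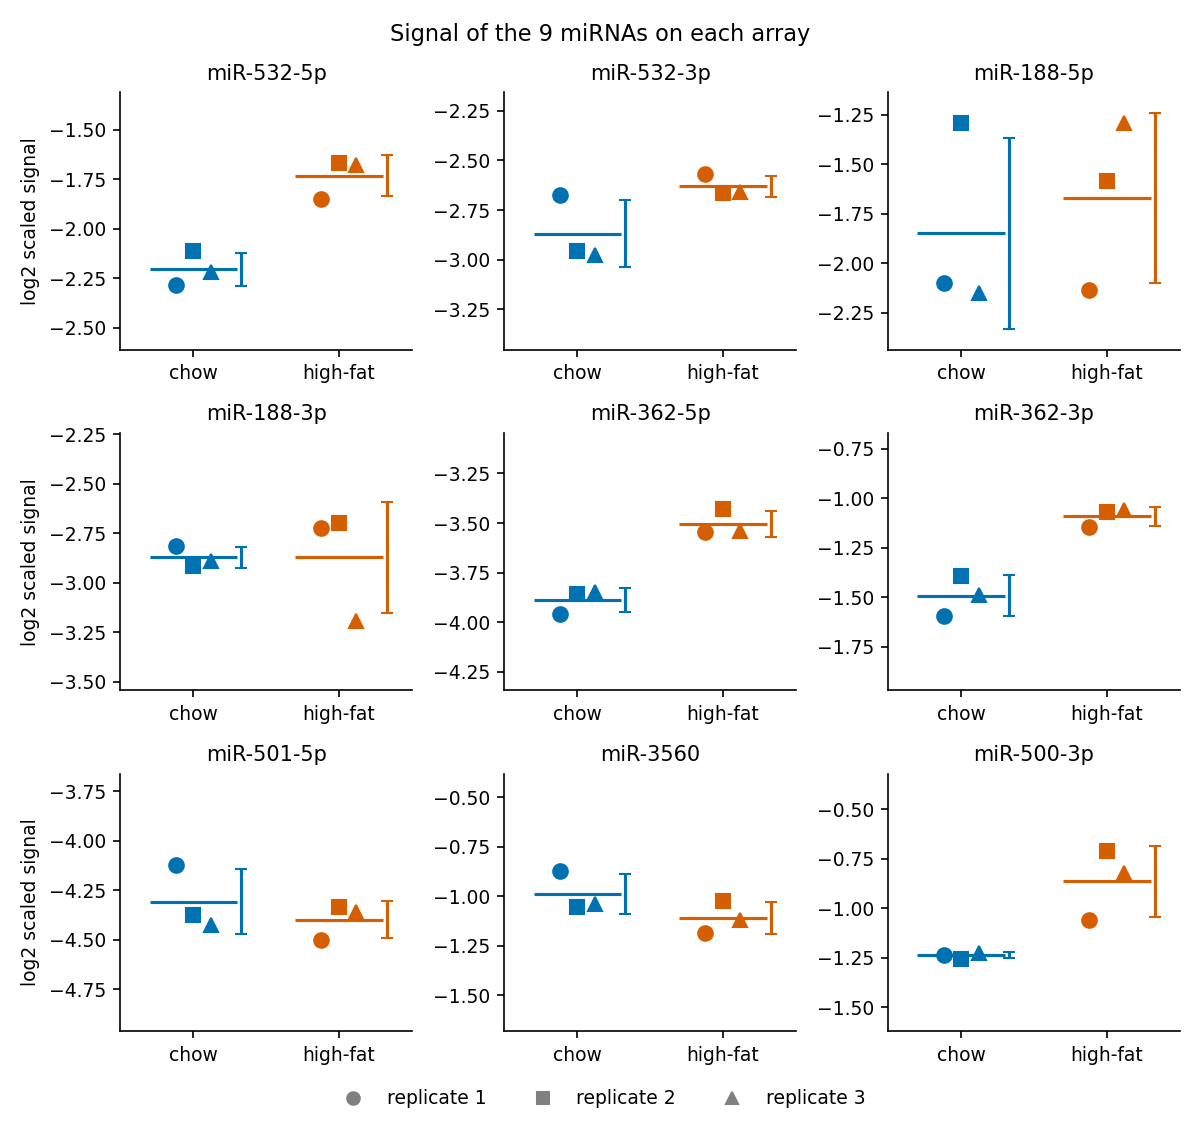
Scaled log2 signal of each member on each array, with the diet mean (line) and SD (bar), n = 3 per diet; each panel spans the same range of 1.3 log2 units around its own level. The diets are apart in miR-532-5p, miR-500-3p and both strands of miR-362, touch in miR-532-3p (0.01 apart), and overlap in the other 4.

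**Figure D3:**
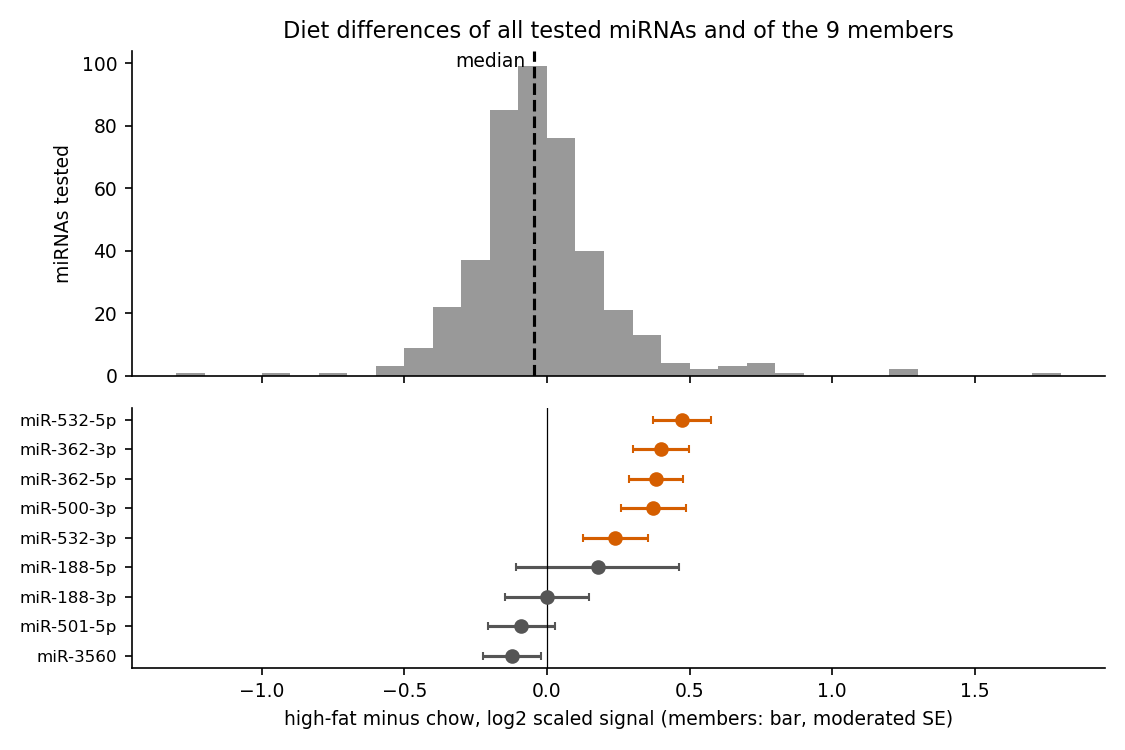
Upper panel: number of tested miRNAs by diet difference (high-fat minus chow, log2), 425 in all, with their median of -0.04 dashed. Lower panel: the same difference for the 9 members with moderated SE bars, from -0.12 in miR-3560 to 0.47 in miR-532-5p; orange marks the 5 members whose diets did not overlap.

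Differences within an array do not depend on the factor by which an array is scaled. For miR-362 the 5p strand minus the 3p strand was -2.36, -2.47 and -2.36 on the chow arrays and -2.40, -2.36 and -2.48 on the high-fat ones and so ran from -2.48 to -2.36 with full overlap, and the diet means differed by -0.02. That difference was -0.28 with normexp and the 75th percentile, -0.21 with the mean over probes and 0.10 with the deposited table. The mean over probes takes in miR-362-5p probes that were at the floor on every array. The second detected probes of the strands differed between the diets by 0.45 (5p) and 0.44 (3p), so they were close as well. The closeness of the miR-362 strands thus depends on the background correction and on how probes are summarised. For miR-532 the same strand difference was 0.39, 0.84 and 0.76 on the chow arrays and 0.72, 1.00 and 0.98 on the high-fat ones. The diets overlapped, with means of 0.66 ± 0.24 and 0.90 ± 0.15 (SD, n = 3 each), and chow replicate 1 stood lowest. For miR-188 it ran from 0.58 on high-fat replicate 1 to 1.90 on high-fat replicate 3, with chow values of 0.71, 1.62 and 0.74. These values, and the correlations of miR-188-3p below, use its brightest probe, and the second probe ordered the arrays differently. Alternatives that change only the scaling factor cannot move the strand difference and are no check of it. Over 17 alternatives, these included, the diet difference of the strand difference was 0.10 to 0.32 for miR-532 and -0.17 to 0.49 for miR-188. These values compare changes of a strand pair, since different probes have no common scale for level.

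The same was done for all 36 pairs of members. Of the 20 pairs that set 1 of the 5 members that stood apart by diet against 1 of the other 4, 13 had within-array differences that did not overlap between the diets, and of the remaining 16 pairs 0 did. Over all 90100 pairs of tested miRNAs, 17.5% did not overlap; since the 5 were sorted by this contrast, the count is a description only. The largest change was that of miR-532-5p against miR-3560, 0.59, and that of miR-362-5p against miR-500-3p, from hairpins on either side of Mir501, was 0.01.

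Co-variation was then read from what is left after the diet mean is taken from each array, which the choice of members did not use. Over the 36 pairs the median Pearson r of these deviations was 0.15, with 21 pairs above 0. Over the 71253 pairs of the 378 miRNAs seen on all arrays the median was 0.06, with 38480 pairs above 0, a similar share. The points of every pair share the 6 arrays, their scaling and their slides. Of the 36 pairs 1 had an unadjusted p under 0.05 and 0 an adjusted one (exact permutation within each diet, 36 arrangements, 2-sided; lowest adjusted p = 0.625, and a single pair cannot go below 0.0278). That pair was miR-532-3p with miR-362-5p, with a negative r of deviations of -0.78 (rho -0.83). With 0.0278 as the lowest p of a pair, a few pairs alone could not reach an adjusted p of 0.05 over 36 pairs. Nothing is therefore read from the count of 0. On the signals as scaled, r is given only for the 26 pairs in which at most 1 member stands apart by diet, since for the other 10 the gap between diets would set it. Of these 26 pairs, 1 had an unadjusted exact permutation p under 0.05 and 0 an adjusted one (2-sided, adjusted over 36 pairs, lowest adjusted p = 0.125). The adjustment took in the other 10 pairs, whose p the gap between diets can lower, so it is too lenient for the 26.

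Among single pairs, miR-501-5p and miR-3560, whose hairpins overlap on opposite strands, had the highest r of deviations, 0.94 (Spearman rho 0.83, exact permutation p = 0.0556, adjusted p = 0.625, n = 6 arrays). Their r on the signals as scaled was 0.91 (rho 0.77, exact permutation p = 0.0181, adjusted p = 0.125, too lenient as said above). It was -0.11 without chow replicate 1 and high-fat replicate 1, the arrays where miR-501-5p was farthest from its median. The relation thus rested on those 2 arrays. The strands of miR-362 had an r of deviations of 0.67 (rho 0.54, exact permutation p = 0.306, adjusted p = 0.733). The strands of miR-532 had one of -0.68 (rho -0.60, exact permutation p = 0.194, adjusted p = 0.692) and those of miR-188 one of -0.57 (rho -0.54, exact permutation p = 0.306, adjusted p = 0.733). miR-532-5p with miR-362-3p, from hairpins more than 6820 bases apart, had one of 0.89 (rho 0.89, exact permutation p = 0.0556, adjusted p = 0.625), and miR-532-3p with miR-362-3p one of -0.87 (rho -0.60, exact permutation p = 0.111, adjusted p = 0.625).

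**Figure D4:**
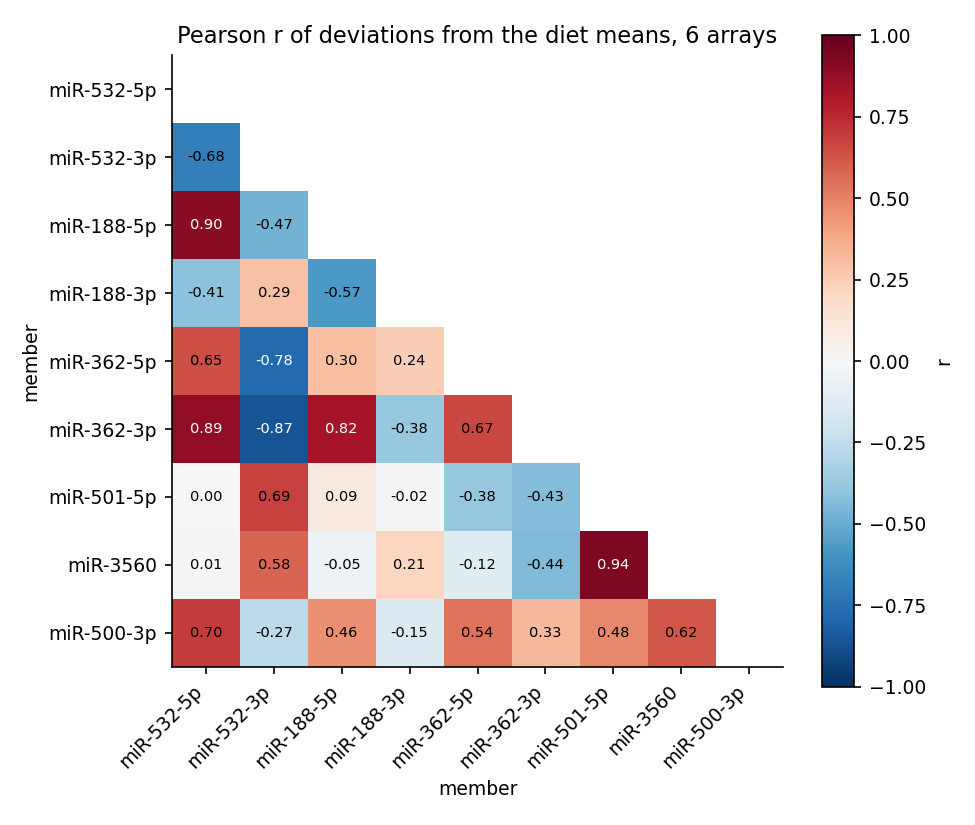
Pearson r of the deviations from the diet means over 6 arrays for each pair of members, blue below 0 and red above. miR-532-5p, miR-188-5p and miR-362-3p have high values with each other (0.82 to 0.90), miR-532-3p has values below 0 with each of them (-0.87 to -0.47), and miR-501-5p with miR-3560 has 0.94. These were picked from the 36 pairs after the values were seen. No pair has an adjusted p below 0.625 (exact permutation within each diet), and the part of array brightness was not tested.

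The miRNAs outside the neighbourhood whose profile over the 6 arrays was most like the mean standardised profile of the members, among 369 seen on all arrays, were miR-25-3p (r = 0.95), miR-497-5p (0.95), miR-325-3p (0.94), miR-93-5p (0.94) and miR-30c-2-3p (0.92). They are the top of a ranking, and the diet gap is part of the profile. Their diet differences (log2) were 0.07, 0.25, 0.21, 0.13 and 0.12 in that order, all smaller than the 4 largest of the members.

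Other X-linked miRNAs gave a comparison for the neighbourhood. Of 50 other tested miRNAs whose RefSeq loci are all on chromosome X, 19 were above 0 and 31 below, with a median difference of -0.03. Of these, 2 (4%) were higher and 6 lower without overlap, 6 had an unadjusted p under 0.05 in the limma fit, and 1, a lower one, passed the adjusted test. In the X-linked group of miR-322, miR-503, miR-351, miR-542 and miR-450a, which is expressed in muscle, 10 strands were tested, with differences from -0.21 for miR-351-3p to 0.25 for miR-450a-5p and a median of 0.01. Only miR-450a-5p of these 10 was higher without overlap, at 0.50 ± 0.11 on chow and 0.75 ± 0.11 on high-fat (scaled log2 signal, SD, n = 3 each), and 0 of 10 passed the adjusted limma test, with 0 at an unadjusted p under 0.05. No test of the difference between these groups was made.

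With no scaling at all, the median of all tested miRNAs rose to 0.32 and all 9 members were above 0, miR-3560 at 0.25 included. Relative to the median of all tested miRNAs, 7 of 9 members were above it in that setting and in the main one. With slide as a block, which sets the high-fat arrays against chow replicate 1, the differences were 0.55 for miR-532-5p, 0.50 for miR-362-3p, 0.45 for miR-362-5p, 0.37 for miR-500-3p and 0.04 for miR-532-3p. The lower members were then at -0.28 for miR-501-5p and -0.24 for miR-3560.

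**Figure D5:**
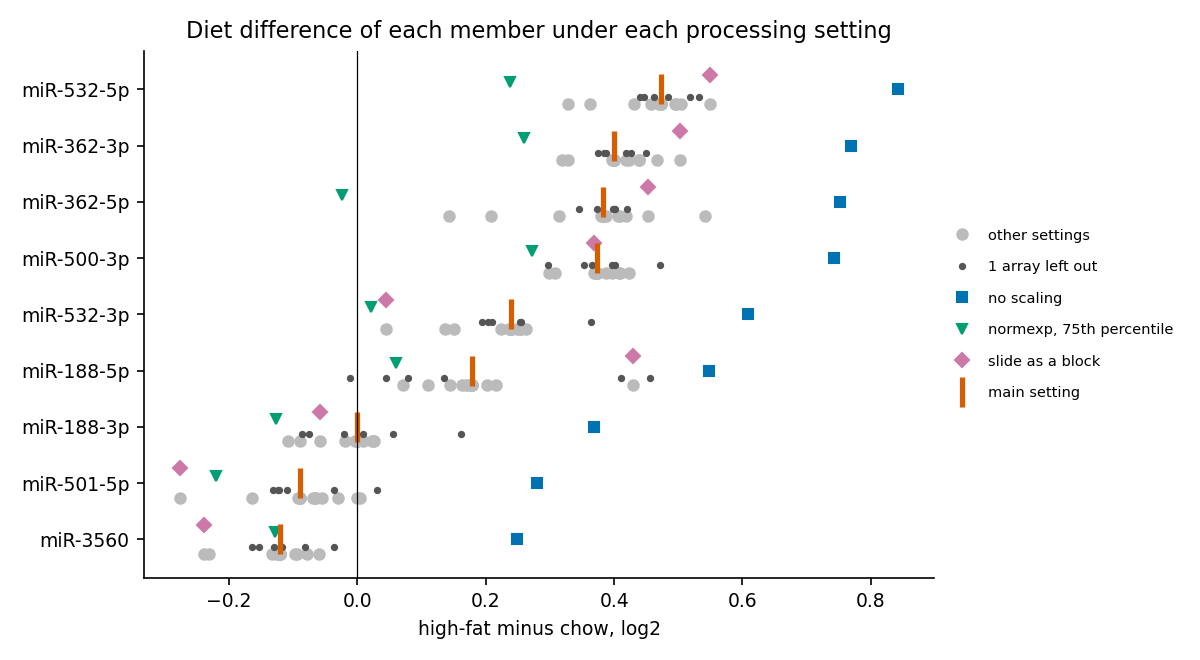
Diet difference (high-fat minus chow, log2) of each member in the main setting (orange bar) and in 22 alternatives. Values without scaling (blue squares) lie to the right for every member, values with normexp and the 75th percentile (green triangles) lie to the left of the main value for all 9, and the lowest values of miR-500-3p, miR-362-3p and miR-532-5p are 0.27, 0.26 and 0.24.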

How the data were processed

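The deposited files of each array hold spot intensity values that the authors obtained with Agilent Feature Extraction 11.0.1.1, per the file headers; the processed signal was background-subtracted and detrended within each array. The deposited value table holds log2 values per miRNA with a median of 3.54 in every array; set against the scanner's log2 total signal it correlated at 0.98 or more with slopes of 0.98 to 1.12, so its scale and direction are those of log2 signal, and its median and 75th percentile (6.62) are equal on all arrays while its lowest values are not, after a normalisation whose method and centring are not given in the sources used here. It served as an alternative, as did normexp background correction (offset 50), which used the median spot signal.

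Control spots (715) and outlier spots (9.07% to 9.42% per array) were left out, and 0 spots were saturated. Spots of a probe were averaged (1806 probes), divided by the array's 75th percentile over 757 probes that were well above background on each of the 6 arrays (on a share of at least 0.5 of their spots), floored at -5.82 and taken to log2. The brightest probe stood for a miRNA, and 425 miRNAs well above background on at least 3 arrays were fitted with limma 3.58.1 (lmFit, eBayes, Benjamini-Hochberg, threshold 0.05; checked on simulated data). Correlations used exact permutation tests. The named miRNAs are the members, their neighbours on the array, the 5 profiles most like theirs and an X-linked comparison group. The members and lists were chosen with earlier results of these data known. Precision is limited by having 3 arrays per diet. Replicate numbers did not pair the samples, by the check given with the alternatives.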

Additional observations from a re-analysis of the deposited data

How the results depend on the processing

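Over 22 alternatives the differences of miR-532-5p (0.24 to 0.84), miR-532-3p (0.02 to 0.61), miR-362-3p (0.26 to 0.77) and miR-500-3p (0.27 to 0.74) stayed above 0. The 22 are not separate checks of a difference. A change of filter or a replicate block cannot move it, and slide as a block and within slide 1 give the same estimate. By more than the spread between replicates, the sign turned in miR-362-5p with normexp and the 75th percentile (-0.023) and in miR-3560 without scaling (0.25). Without scaling, a factor shared by all miRNAs of an array is left out, so all members moved up alike. miR-3560 went from -0.121 to 0.248 and miR-532-5p from 0.473 to 0.843. For miR-362-5p the value of -0.023 is itself smaller than the spread between replicates (0.063). With normexp and quantile normalisation it was 0.142. Why normexp lowered miR-362-5p was not tested. miR-188-5p (-0.01 to 0.55), miR-188-3p (-0.13 to 0.37) and miR-501-5p (-0.28 to 0.28) had values on both sides of 0. The members' median was 0.61 without scaling and 0.021 with normexp and the 75th percentile, where 3 members were higher and 2 lower without overlap. With normexp and the 75th percentile the median of all tested miRNAs was -0.135, and 8 of 9 members were above it. With 1 array left out the members' median was 0.20 to 0.40 (0.36 without chow replicate 1, 0.36 without chow replicate 2, 0.40 without high-fat replicate 1) and 4 to 6 members were higher without overlap. The share of all tested miRNAs without overlap was not counted in these settings. Groups of 2 and 3 arrays also separate more easily, so nothing is read from these counts. Members past the adjusted limma test numbered 0 in 21 alternatives and 1 with normexp and quantile normalisation, miR-362-3p. In that setting 3 of all 424 tested miRNAs passed. The count over all tested miRNAs, 2 in the main setting, was 0 with quantile normalisation, the deposited table, no filter, a floor 4 times higher, slide as a block or within slide 1, 1 with the mean over probes or outlier spots kept, 5 without scaling, 8 with normexp and the 75th percentile, and 0 to 3 with 1 array left out (3 without chow replicate 1, 1 without chow replicate 3 or high-fat replicate 1, and 0 without each of the others). The median r over all member pairs, which the gap between diets enters, was 0.09; it was 0.23 with the percentile over all probes or median scaling, 0.83 without scaling, -0.036 with normexp and the 75th percentile, 0.28 with the deposited table, 0.22 with the mean over probes or the higher floor, and 0.030 to 0.32 with 1 array left out. With the replicate number as a block 3 miRNAs passed and 0 members, at an unchanged median of 0.24. Deviations of same-numbered arrays correlated at 0.22, -0.01 and 0.05, and 2 of 6 arrays correlated best with their own number, so the numbers were not taken as pairs. Dim signal limits miR-501-5p and miR-362-5p most: at the higher floor miR-501-5p was at the floor on all arrays.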

Other observations

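The split of the arrays in miR-188-5p was seen in both diets and on both probes, and miRNAs outside the neighbourhood were ranked by likeness to it. The 5 profiles most like it among 369, a ranking made after its values were seen, were miR-149-3p (r = 0.97), miR-183-3p (0.95), miR-328a-5p (0.93), miR-134-5p (0.92) and miR-542-5p (0.92) over 6 arrays. They were picked for this likeness, so it is no evidence of a shared pattern. miR-134-5p, enriched in brain, read -3.49, -2.13 and -3.62 on the chow arrays and -3.33, -3.13 and -2.56 on the high-fat ones, so it too was highest on chow replicate 2 and high-fat replicate 3. On high-fat replicate 2 it lay nearer to high-fat replicate 1 than to those arrays. The 3 arrays on which miR-188-5p was high, chow replicate 2 and high-fat replicates 2 and 3, were also the 3 with the highest 75th percentile of signal, 424, 531.7 and 561 against 359 to 415 on the others, and they lie on both slides. The part of array brightness in the split was not tested.

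miR-3560 was well above background on all 6 arrays, with signals before scaling of 182 to 261 units. miR-501-3p, whose sequence is complementary to all 22 of its bases, was well above background on 2 of the 6, with scaled log2 signals of -5.75 to -5.37 near the floor of -5.82. Probes differ in brightness for the same amount of RNA, so these values give no ratio of the strands.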
